A study of Drosophila melanogaster with 4 samples.

Results

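Prospero binding was examined at 38 genes that carry the Dpp, activin, Hedgehog and JAK-STAT signals between cells. The genes are a list of pathway components, drawn up with earlier results of this table known, and were looked up by exact symbol in the authors' deposited table of genes with Prospero peaks. Of the 38 genes, 6 were in that table: the Dpp-family ligand gbb, the receptor put, the transcription factors Mad, Med and shn, and the inhibitor Dad. That is 15.8%, against 7.76% of all protein-coding genes, and near the 4.87 entries that genes of the same lengths would have. All 6 belong to the Dpp branch. None of the 10 Hedgehog genes, the 7 JAK-STAT genes or the 6 genes placed here in the activin branch alone was in it. Together their lengths would give 2.62 entries.

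The table comes from targeted DamID, in which a protein is fused to a bacterial DNA adenine methylase (Dam) so that GATC sites near the protein become methylated and can be recovered and sequenced. The samples were Dam-ProsFL (full-length Prospero), Dam-Pros∆N7 (a Prospero form of that name), Dam-HP1a (the heterochromatin protein HP1a) and Dam-ctr (Dam alone). All 4 were driven by GMR71C09-GAL4 with Gal80ts in 3rd instar larvae, and DNA came from dissected brains, and the design text gives each sample 3 biological replicates. Dam was thus expressed only where that driver is active, in central brain precursors and neurons by the series title. Prospero is a homeodomain factor that ends division and starts differentiation in the progeny of neuroblasts, the neural stem cells of the fly.

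The only measurement used here is whether a gene is named in the table. The table gives no peak height, position, Prospero form or replicate, so no spread between replicates, no test and no depth can be given. An unlisted gene is only one that no entry among those analysed matched by symbol. Transcript entries carry a suffix, so a gene present only in that form could have been missed. The table as analysed held 1584 entries, and these matched 1504 annotated genes.

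Dpp and its relatives are secreted ligands of the TGF-beta superfamily. They bring type I and type II receptor kinases together, which phosphorylate a Smad protein that enters the nucleus with a partner Smad and changes transcription. The BMP-like branch (Dpp, Gbb, Scw) acts mainly through the Smad Mad and the activin-like branch through Smox. Hedgehog binds Patched and relieves its block on Smoothened, which turns the factor Ci from a repressor into an activator. The Unpaired ligands bind the receptor Domeless, whose kinase Hopscotch activates Stat92E. In the larval brain these pathways are known for roles in optic lobe growth, neuron remodelling, motor neuron signalling and glia.

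The background of 7.76% is 1082 of 13946 annotated protein-coding genes. Without arm 3R, which carries put, Med and Dad, 3 of 31 members were listed (9.68%). The background was 8.45% when all annotated genes were counted and 9.54% among protein-coding genes that have a name instead of only a CG or CR number, a restriction chosen after the table was seen. Long genes were listed more often, and the pathway genes were long, with a median of 7140 bp against 2161 bp over all protein-coding genes. The figure of 4.87 sums, over the 38 genes, the share listed among protein-coding genes of the same length decile. The count of 6 lies near it, and the description below concerns how the 6 were placed among the pathways and roles.

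By pathway, 6 of the 15 Dpp genes were in the table (40%), where their lengths would give 2.25. The counts at gene length for the branches without an entry were 0.563 of 6 for activin, 1.19 of 10 for Hedgehog and 0.868 of 7 for JAK-STAT. Each of these branches would have about 1 entry or fewer at its gene lengths, so a count of 0 says little about any of them alone, and the difference between pathways was not tested.

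**Figure D1:**
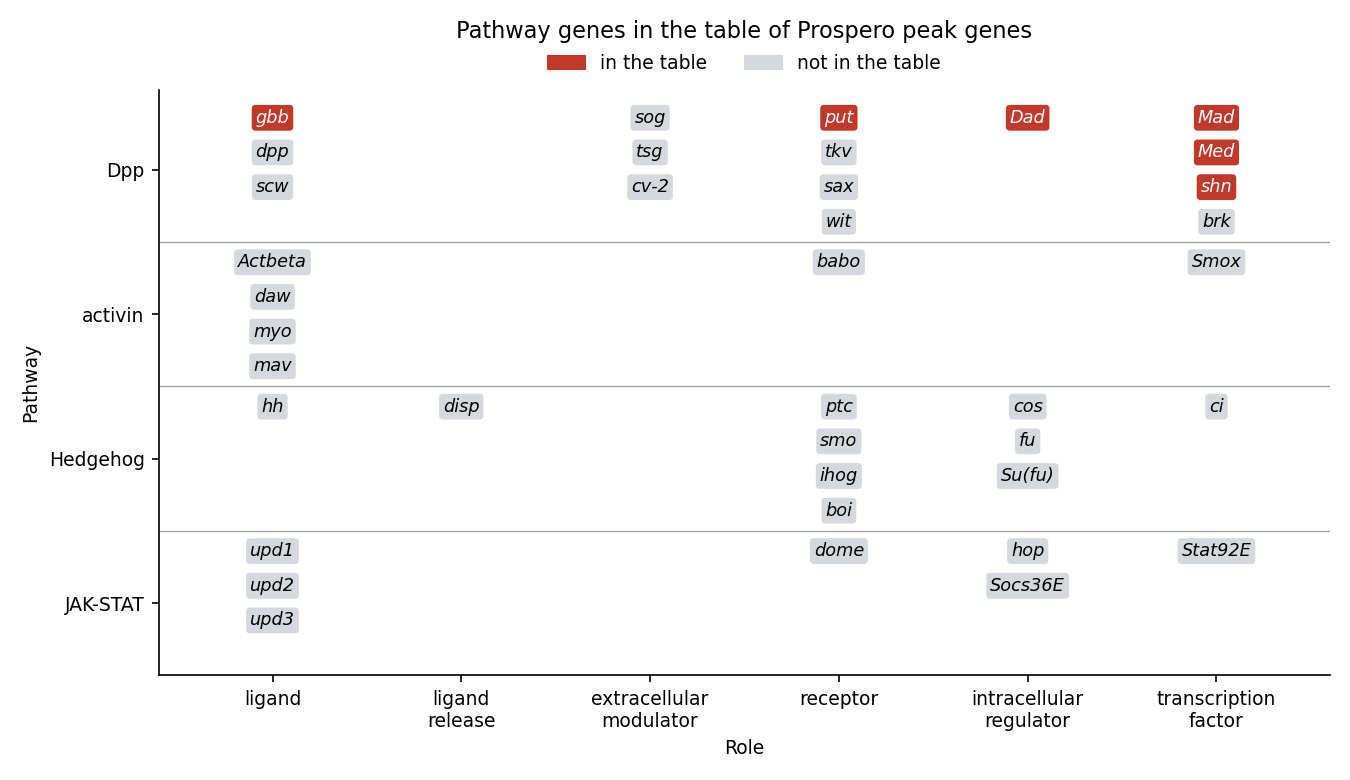
The 38 genes arranged by pathway (rows) and role (columns), in red where the gene is in the authors' deposited table and in grey where it is not. The 6 red genes all stand in the Dpp row, and 3 of them in the transcription factor column.

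By role, transcription factors had the most entries, with 3 of 7 listed against 0.965 at their gene lengths. The 3 were Mad, Med and shn, and Smox, brk, ci and Stat92E were not listed. All 3 are also among the listed Dpp genes, so role and pathway cannot be told apart here. Among ligands 1 of 11 was listed (gbb), against 1.07 at their gene lengths. Among receptors it was 1 of 10 (put), against 1.46. The intracellular regulators had 1 of 6 (Dad), against 0.677, and neither the 3 extracellular modulators sog, tsg and cv-2 nor the Hedgehog release protein gene disp was in the table.

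**Figure D2:**
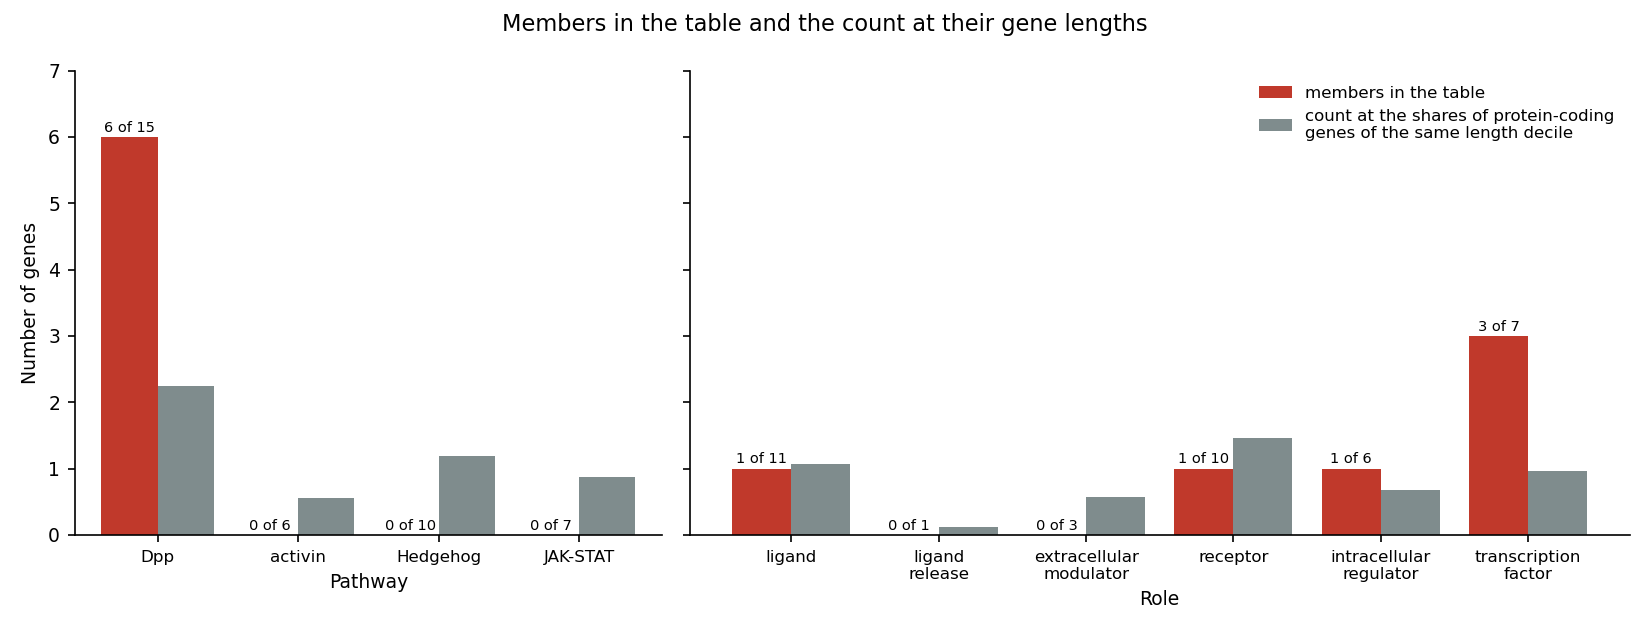
Number of genes in the table (red) beside the count that the shares of protein-coding genes in the same length deciles would give (grey), by pathway on the left and by role on the right. Red exceeds grey most in the Dpp pathway (6 against 2.25) and among transcription factors (3 against 0.965). The 3 transcription factors are among the 6 Dpp genes, and no red bar stands over activin, Hedgehog or JAK-STAT.

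The ligand in the table was gbb (glass bottom boat, FBgn0024234, CG5562, arm 2R), a BMP ligand that muscle sends back to motor neurons at the larval neuromuscular junction. At 1686 bp it was the shortest listed member, in a length decile where 4.23% of protein-coding genes had an entry. The gene beside it in gene order, eIF6, a ribosome biogenesis factor, was in the table too, and bgcn on its other side was not. The morphogen gene dpp itself (CG9885, 2L) was not listed although it spans 31452 bp, in the longest decile, where 26.3% of genes were listed. The early embryonic ligand scw (CG31695, 2L) was not listed either.

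Of the receptors, put (punt, FBgn0003169, CG7904, 3R), a type II receptor that serves BMP and activin ligands alike, was in the table. Its length of 6674 bp lies in the 9th decile, where 12.5% of genes were listed. Neither of its neighbours, CG14853 and His4r, had an entry, and the nearest other listed gene, Meltrin, lay 9 protein-coding genes away. The type I receptors for BMP ligands, tkv (CG14026, 2L, 52385 bp) and sax (CG1891, 2R, 3584 bp), were not in the table, and neither was wit (CG10776, 3L, 7566 bp), the type II receptor of motor neurons. The activin type I receptor gene babo (CG8224, 2R, 10458 bp) was absent as well.

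Of the 4 Smad genes 3 were in the table, against 0.524 at their gene lengths, in a grouping made after the table was seen. Mad (FBgn0011648, CG12399, 2L, 13588 bp) encodes the Smad that receptors activate in response to BMP ligands. Med (Medea, FBgn0011655, CG1775, 3R, 4330 bp) encodes the partner Smad that both branches share. Dad (Daughters against dpp, FBgn0020493, CG5201, 3R, 16402 bp) encodes the inhibitory Smad, which is itself switched on by Dpp signalling. The Smad without an entry was Smox (CG2262, X, 5239 bp), which carries the activin signal. The nearest other listed gene to Smox, orion, lay 23 protein-coding genes away.

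Schnurri, encoded by shn (FBgn0003396, CG7734, 2R), is a zinc finger protein that joins Mad and Medea to repress genes. It was the longest member at 58309 bp, in the decile where 26.3% of genes were listed. The best known gene that this complex represses, brk (CG9653, X, 3194 bp), itself a repressor of Dpp targets, was not in the table. In the RefSeq annotation brk lies inside the spans of CG1677 (124709 bp) and lncRNA:CR44357 (239347 bp), and both of those were in the table. A list of names does not tell where in these long genes a peak lay.

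Med and its neighbour CycG, a G-type cyclin gene, overlap in the annotation and both were listed, so 1 peak could have given both entries. For Mad, Dad, put and shn neither adjacent protein-coding gene was listed. The distance to the nearest other listed gene was 5 genes for Mad (FASN1), 3 for Dad (Keap1) and 8 for shn (CG43188). In all, 2 of the 6 listed members (33.3%) had a listed neighbour, compared with 68.4% of the 1082 listed protein-coding genes. Whether a shared peak lies behind the gbb and eIF6 entries or the Med and CycG entries was not tested, since no peak positions were analysed here.

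**Figure D3:**
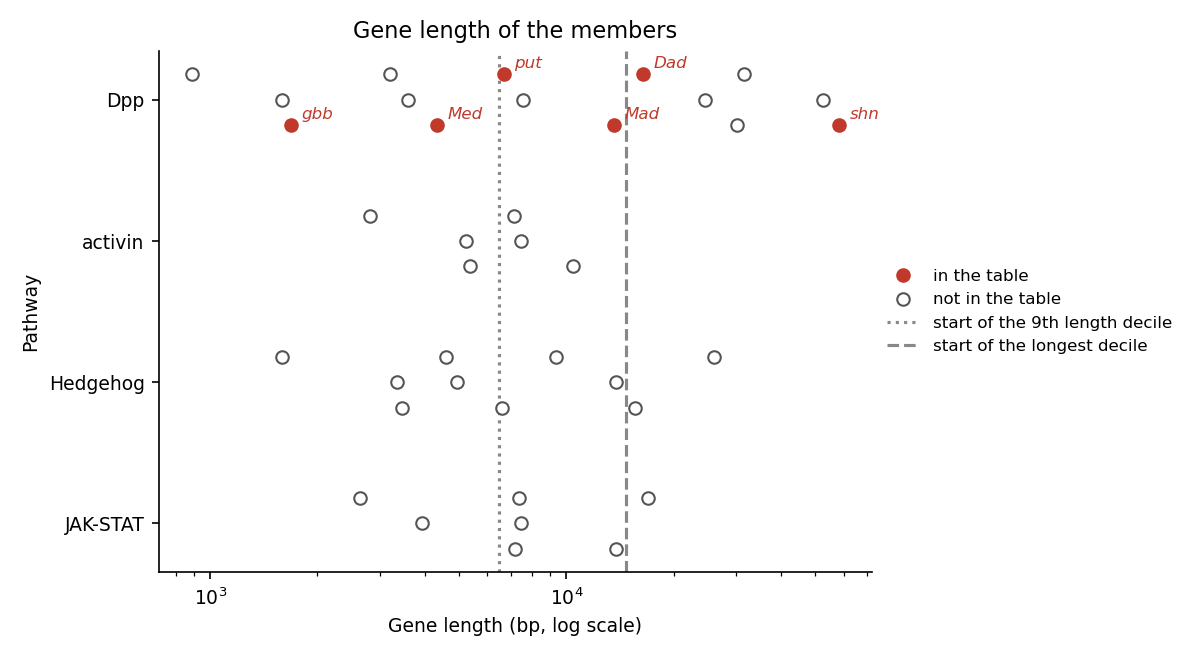
Gene length in bp on a log axis for the 38 genes by pathway (rows), filled where the gene is in the table. The dotted line marks the start of the 9th length decile (6484 bp) and the dashed line that of the longest decile (14733 bp), and the filled points span 1686 bp (gbb) to 58309 bp (shn).

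The activin branch had no entry of its own. The ligand genes Actbeta (CG11062), myo (myoglianin, CG1838) and mav (maverick, CG1901) all lie on chromosome 4, and daw (dawdle, CG16987) lies on arm 2L. Of these, myo is directly beside ey, an eye and brain transcription factor gene that was listed, while myo was not. Counting put and Med, which activin signalling also uses, 2 of 8 genes were in the table (25%, against 0.756 at their gene lengths). This grouping was chosen with earlier results known. It leaves out wit, the other type II receptor gene among the members, which was not listed. The put and Med entries are also counted in the Dpp branch, so they do not separate the branches.

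Long members were found on both sides. Of the 9 members in the longest decile, 2 were listed (Dad and shn), and dpp, tkv, sog, cv-2, ptc, boi and Stat92E were not. The share of that decile, 26.3%, would give 2.36. In the 9th decile 2 of 13 were listed (put and Mad), where its share of 12.5% would give 1.63. The antagonist sog (CG9224, X, 30152 bp), which binds Dpp outside the cell, lay 28 genes from the nearest listed gene. Its partner tsg (CG1502, X, 887 bp) was the shortest member. The BMP-binding protein gene cv-2 (CG15671, 2R, 24450 bp) lay 14 genes from the nearest listed gene, which was Egfr.

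The Hedgehog genes without an entry cover every step of the pathway. They are the ligand hh (CG4637, 3R, 13738 bp), its release protein disp (CG2019, 3R), the receptor ptc (CG2411, 2R, 15575 bp), the transducer smo (CG11561, 2L, 4586 bp) and the co-receptors ihog (CG9211, 2L) and boi (CG32796, X, 25877 bp). The others are the kinesin-like scaffold cos (CG1708, 2R), the kinase fu (CG6551, X), the inhibitor Su(fu) (CG6054, 3R) and the transcription factor ci (CG2125, chromosome 4, 9332 bp). The gene cos is adjacent to Dscam1, a neuronal recognition receptor gene that was listed. The other 9 had no listed neighbour, and their distance to the nearest listed gene was 4 genes for boi at the least and 48 for Su(fu) at the most.

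Of the 4 pathways, JAK-STAT had the highest median distance in gene order to a Prospero peak gene, which was not tested. The ligand genes upd1 (CG5993), upd2 (CG5988) and upd3 (CG33542) form a cluster on the X chromosome and were 30, 33 and 31 genes from the nearest listed gene, Bx. The receptor dome (CG14226, X) was 21 genes away, the kinase hop (CG1594, X) 16, the transcription factor Stat92E (CG4257, 3R, 16989 bp) 31 and the feedback inhibitor Socs36E (CG15154, 2L, 13743 bp) 14. The median of the 7 was 30 genes, compared with a median of 9 over the 12864 protein-coding genes not in the table. The 3 upd genes share 1 stretch of the chromosome and do not count as separate observations. Over all 32 unlisted members 2 had a listed neighbour (6.25%), close to the 8.95% of unlisted protein-coding genes.

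**Figure D4:**
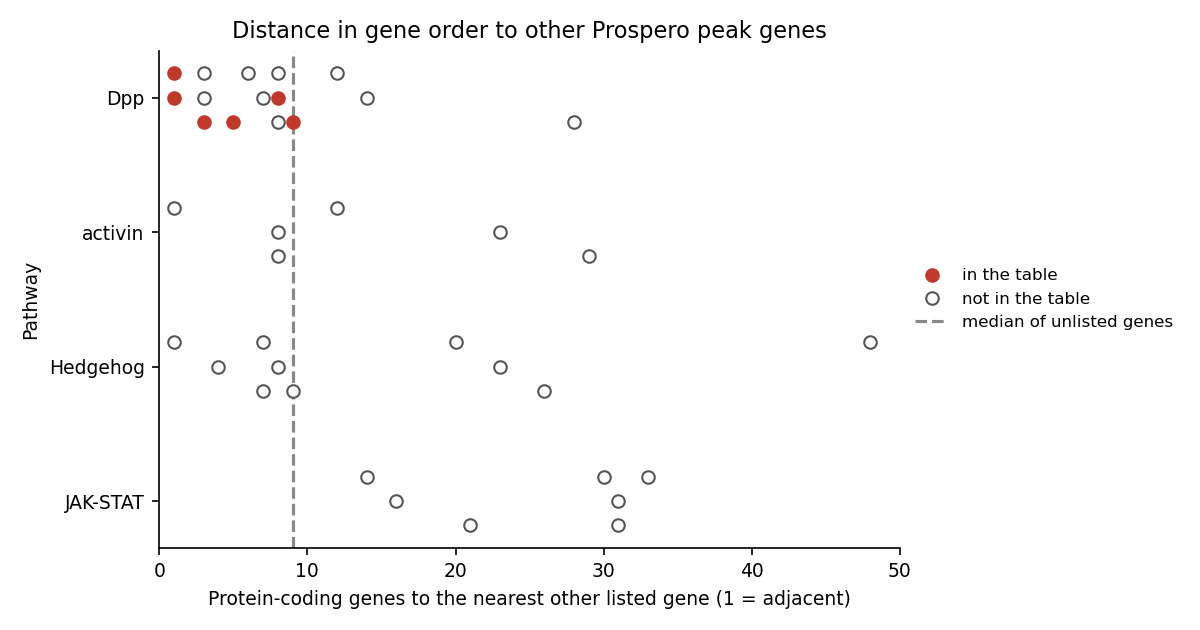
Number of protein-coding genes from each member to the nearest other gene in the table, by pathway (rows), where 1 means adjacent and filled points are members in the table. The dashed line is the median of 9 over unlisted protein-coding genes, and all 7 JAK-STAT genes lie to its right.

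The wider pathways were described with 77 further genes: regulators, ligand-processing and transport proteins, cofactors and known targets from other tissues, listed with earlier results of this table known. Of these 20 were in the table (26.0%), against 12.2 at their gene lengths. They have a median length of 11200 bp. In the Dpp pathway 9 of 29 were listed, against 4.87 at gene length. These were the glypican gene dlp and the collagen gene Col4a1, whose products bind Dpp outside the cell, and the genes of nuclear factors bi, salr, hth, tsh, ush, gro and zfh1. Of these, bi and salr are targets of Dpp in the wing and gro encodes a co-repressor. The first 5 unlisted genes in alphabetical order were bam, CtBP, cv, Cv-d and dally. None of the 4 intracellular regulators (Smurf, Sara, Fkbp12 and msk) was listed, where 0.303 would be at their gene lengths, too few for the 0 to tell them from other genes.

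For the activin branch, the protease gene Fur1 and the ecdysone receptor gene EcR, which activin signalling controls in mushroom body neurons, were listed, and foxo and Fur2 were not. Around the Hedgehog pathway 5 of 27 were in the table, against 4.67 at gene length: dlp again, the kinase gene sgg, pxb, kn (a Hedgehog target in the wing) and tow. The first 5 without an entry were ara, botv, caup, CkIalpha and Cul1. Around JAK-STAT 6 of 20 were listed, against 2.58, namely the phosphatase gene Ptp61F, which dampens the pathway, and the transcription factor genes apt, chinmo, ken, tll and zfh1. The first 5 unlisted were asrij, BRWD3, Dll, E(bx) and et. Of these 6 entries 5 lay among the 11 targets and cofactors, against 1.75 at gene length, and 1 among the 8 intracellular regulators, against 0.775. The zfh1 entry is also counted among the further Dpp genes above.

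Core lists of 3 other signalling pathways, set beside the 38 genes without a test, had higher shares. In the Wnt list 8 of 25 genes were in the table (32%, against 3.68 at gene length), in the receptor tyrosine kinase and Ras list 8 of 33 (24.2%, against 5.69) and in the Notch core list 6 of 18 (33.3%, against 2.76). The 38 genes stood at 15.8% against 4.87, and the 15 Dpp genes alone at 40% against 2.25. The Dpp branch was singled out after its entries were seen.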

How the data were processed

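Per the file header, the deposited table names genes with Pros binding peaks in 3 text columns (gene name, FlyBase identifier, symbol) and holds no numeric column. For the aligner, peak caller, threshold, gene assignment rule and genome build, nothing is given in the sources used here. The binding profiles and promoter sequences were not analysed here. Of 1512 gene entries, 1457 matched RefSeq's genes (assembly Release 6 plus ISO1 MT) through the current symbol, 50 through an older one, and 5 did not match. The 72 transcript entries went through the same matching of whole symbols with their suffix left on, so few or none may have matched. Their matches were not counted separately.

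Members were found by exact symbol, and a gene counts as listed or not. Gene length is the span in that assembly, cut into 10 equal bins of protein-coding genes. The count at gene length sums, over members, the share listed in each member's bin. Adjacent genes are neighbours among protein-coding genes ordered by start. No p-value was computed. All members are named, as are all listed further genes and the first 5 unlisted per pathway. The members, lists and alternatives were chosen with earlier results of these data known. Matching through current symbols and the length sums were checked on simulated lists. Matching of older symbols and of transcript entries was not checked in this way. Python 3.11.15, numpy 2.4.6 and pandas 2.3.3 were used.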

Additional observations from a re-analysis of the deposited data

How the results depend on the processing

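The share of the 38 genes in the table was 15.8%. It was the same when symbols were also matched through synonyms, and 16.2% (6 of 37) with adjacent members counted as 1. Arm 3R, which carries put, Med and Dad, mattered most: without it 3 of 31 were listed (9.68%). Leaving out any of the other arms with members gave 12.9% (2R) to 22.2% (X). The count at gene length was 4.79 with 20 length bins and 5.37 with shares taken over named genes, an alternative added after the table was seen. Counting gene entries alone changes nothing by construction, since transcript entries carry a suffix that no member symbol matches. For the same reason, a member present only as a transcript entry would not have been found by exact symbol. Whether any unlisted member is among the 72 transcript entries was not checked. Replicate error and depth could not be assessed from a list of names. No paired analysis was possible because the table has no values per replicate.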
